A study of Rattus norvegicus with 6 samples.

Results

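The miR-143 and miR-145 cluster was described here by the 4 mature miRNAs that its hairpins give, rno-miR-143-3p, rno-miR-143-5p, rno-miR-145-5p and rno-miR-145-3p, written below without the species prefix. These are the rows of the deposited tables whose name is an arm of rno-miR-143 or rno-miR-145, 4 of 1071 rows in all, of which 552 are known rat miRNAs. Small RNA was sequenced from fibroblasts of the rat sciatic nerve, which were wild type and untreated. There were 3 libraries of RNA from the extracellular vesicles that the fibroblasts release (EV) and 3 of RNA from inside the fibroblasts (Intracellular), which serve as the controls. All 6 libraries carry the same batch number, and the labels name neither an age or strain of the rats nor separate cultures, so p-values cover the spread between these libraries, which may be technical.

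Both hairpins lie close together within a non-coding transcript, Carmn, and are cut from a shared primary transcript. Each hairpin gives a pair of arms, of which usually a single one, the guide, is loaded into Argonaute proteins, while the other, the passenger, is mostly degraded. The cluster is known from smooth muscle cells, pericytes and fibroblasts, where serum response factor and myocardin drive its transcription. In smooth muscle, miR-145-5p represses Klf4 and Klf5, transcription factors of the dedifferentiated state, and miR-143-3p represses Elk1, a cofactor of serum response factor. Transfer of these miRNAs in vesicles between endothelial and smooth muscle cells has been described.

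The hairpins are shown because the comparisons below turn on which arm of each was counted. They are given by RefSeq on build GRCr8 on the minus strand of chromosome 18, at chr18:57371349-57371453 for Mir143 and at chr18:57369983-57370070 for Mir145, 1278 bases apart. The authors' own build was Rnor_6.0, for which no coordinates are given here. Capitals mark the mature arms, 5p before 3p, in each hairpin:
Mir143: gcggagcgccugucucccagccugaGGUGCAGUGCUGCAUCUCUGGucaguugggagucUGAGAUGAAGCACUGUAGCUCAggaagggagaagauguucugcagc
Mir145: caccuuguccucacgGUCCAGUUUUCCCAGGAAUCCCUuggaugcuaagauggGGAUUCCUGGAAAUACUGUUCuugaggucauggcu

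The mature sequences follow, with the seed, bases 2 to 8, which pairs with target mRNAs, in capitals. All 4 deposited sequences were the same as those of RefSeq.
miR-143-3p: uGAGAUGAagcacuguagcuca
miR-143-5p: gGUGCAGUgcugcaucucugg
miR-145-5p: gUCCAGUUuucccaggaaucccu
miR-145-3p: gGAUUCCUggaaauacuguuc
The 4 seeds differ from each other, so the cluster addresses 4 seed classes. No other rat miRNA of the RefSeq table shares any of them. In the deposited table the seed of miR-143-3p was also found in the predicted miRNA novel470_mature, which had 1 count in EV replicate 2 and 0 in the other libraries. The lengths of 21 to 23 bases differ little, so levels need no correction for length.

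Short letter runs named in the literature for loading into vesicles were searched on the mature strand, with no overlap among them. GGAG and CCCU are linked to hnRNPA2B1 and GGCU to SYNCRIP. CCCU stands at the 3′ end of miR-145-5p, and no other match was found among the 4 arms. Of 693 mature rat miRNAs, 8.08% hold GGAG, 9.52% hold CCCU and 10.8% hold GGCU.

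Each EV library held between 81211 and 105578 counts, and each Intracellular library between 1839047 and 8859302. Levels are given in CPM, the counts scaled to a library total of 1000000, which equal the deposited TPM, and 1 count stood for 9.47 to 12.3 CPM in EV libraries. All 4 arms had counts in all 6 libraries and passed the filter on low counts, which left 328 miRNAs to test. The filter sets its minimum count at the median library size, so the shallower EV libraries could pass it with fewer counts. Shares and medians over all miRNAs tested may include miRNAs that passed in this way. Intracellular replicate 1 stood apart from the other libraries of its group, with a TMM factor (a scaling factor estimated from the bulk of the miRNAs) of 0.557 against 0.963 and 0.935 in Intracellular replicates 2 and 3. It also stood apart in several values of the cluster. Many, but not all, of the fits and ratios below are given with and without it. In a library made from many vesicles or many cells, fewer particles that carry a miRNA and fewer molecules in each cannot be told apart.

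The cell type in the labels was set against marker miRNAs. Besides the cluster, 17 further mesenchymal, fibroblast and smooth muscle miRNAs together took 331495 to 338091 CPM in EV libraries and 311633 to 339695 CPM in Intracellular libraries. The 5 epithelial miRNAs of the miR-200 family had no counts in EV and took 1.09 to 1.92 CPM in Intracellular libraries. Such levels lie below the 9.47 to 12.3 CPM of 1 EV count, so their absence from EV cannot be told from low depth. The endothelial miR-126a arms took 259.9 to 435.7 CPM in EV, against 141.4 to 390.3 CPM in Intracellular libraries, and 5 leukocyte miRNAs took 216.6 to 265.2 CPM in EV, against 63.6 to 169.9 CPM in Intracellular libraries. The striated muscle list took 110.8 to 246.3 CPM in EV, against 89.7 to 181.7 CPM in Intracellular libraries, the glial list 0 to 47.4 and 8.16 to 20.1 CPM, and the neuronal list 2160 to 2578 and 1580 to 3277 CPM, EV before Intracellular. Each of these lists lacked a miRNA that has no row in the deposited data. These were miR-208a-3p for striated muscle, miR-219a-2-3p for glia and miR-124-3p for neurons, so the neuronal sum holds 2 of 3 listed miRNAs. Of markers from outside the nerve, the 3 erythroid miRNAs took 151.5 to 221.6 CPM in EV, against 2.26 to 5.98 CPM in Intracellular libraries, and the 3 liver and serum miRNAs took 11612 to 14069 CPM in EV, against 397.1 to 476.3 CPM in Intracellular libraries. In the fits described below, 25.6% of all miRNAs tested were called higher in EV and 17.1% lower with TMM scaling, and 32.6% and 0.915% with total counts. Under each scaling, the count called higher was 2 of 2 erythroid miRNAs tested, 1 of 3 liver and serum miRNAs and 1 of 2 striated muscle miRNAs, and with total counts 1 of 2 leukocyte miRNAs was also called higher. The median log2 fold change of the 3 liver and serum miRNAs was 0.15 with TMM and 0.74 with total counts. Their summed CPM therefore does not stand for each of them. With TMM scaling 2 of 2 neuronal miRNAs and 1 of 2 striated muscle miRNAs were called lower. The part of these miRNAs in the values of the cluster was not tested. Since smooth muscle cells and pericytes share the cluster with fibroblasts, these miRNAs do not separate the 3 cell types.

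The first question was how much of each library the cluster takes. The 4 arms together held 21.3%, 20.3% and 18.7% of the counts of EV replicates 1, 2 and 3, and 23.2%, 22.2% and 21.3% of those of Intracellular replicates 1, 2 and 3. The highest EV library and the lowest Intracellular library nearly met. The means were 20.1% ± 1.31 in EV, against 22.2% ± 0.972 in Intracellular libraries (SD, n = 3; exact 2-sided permutation p = 0.1, the smallest that 3 against 3 libraries allow). The size of this difference depends on what the cluster is set against. Of the counts left without the 10 most abundant other miRNAs, the arms held 38.0% ± 0.990 in EV, against 49.6% ± 5.03 in Intracellular libraries (SD, n = 3), a difference of -11.6 percentage points. Of the counts of known miRNAs alone the difference was -1.91 percentage points, and the groups overlapped (exact permutation p = 0.2). Of the counts of the cluster, miR-143-3p alone made up 98.1% to 98.2% in EV and 98.2% to 99.1% in Intracellular libraries.

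miR-143-3p, the guide of its hairpin, was the most abundant miRNA in all 6 libraries. Its level was 208900, 198725 and 183463 CPM in EV replicates 1, 2 and 3, and 230393, 217579 and 209481 CPM in Intracellular replicates 1, 2 and 3. The groups did not overlap, but EV replicate 1 lay just under Intracellular replicate 3. Among the miRNAs tested, 3.66% had EV levels below all Intracellular levels, and 45.4% did not overlap in either direction. The next miRNA in the order of group means was miR-21-5p in both groups, at 129126 ± 5937 CPM in EV, against 152971 ± 11468 CPM in Intracellular libraries (SD, n = 3). Its levels did not overlap with those of miR-143-3p in either group.

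miR-145-5p, the guide of the other hairpin, was far less abundant. It stood at 3017, 3097 and 2957 CPM in EV replicates 1, 2 and 3, and at 1842, 3582 and 3165 CPM in Intracellular replicates 1, 2 and 3. The EV libraries lay close together, inside the wide range of the Intracellular libraries, of which replicate 1 was the lowest. The coefficient of variation was 2.33% in EV, against 31.7% in Intracellular libraries, where it rests largely on replicate 1. The EV spread was within counting error. The exact 95% binomial interval of EV replicate 1, from 245 counts, ran from 2651 to 3419 CPM and held the other EV values. In the order of group means among the 290 known miRNAs tested, miR-145-5p was at place 33 in EV and at place 28 in Intracellular libraries. Its neighbours there, miR-378a-3p and miR-191a-5p in EV and miR-181a-5p and miR-221-3p in Intracellular libraries, overlapped with it in CPM.

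miR-143-5p is the passenger arm of the miR-143 hairpin. It had 751.1, 682.0 and 335.8 CPM in EV replicates 1, 2 and 3, and 149.5, 313.3 and 307.9 CPM in Intracellular replicates 1, 2 and 3. All EV levels were above all Intracellular levels, as for 41.8% of the miRNAs tested, but EV replicate 3 was close to Intracellular replicates 2 and 3. The exact 95% binomial interval of EV replicate 3, from 31 counts, ran from 228.1 to 476.5 CPM and so held the values of both. Such intervals cover counting error only, since reads amplified by PCR are not independent molecules.

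miR-145-3p, the passenger arm of the miR-145 hairpin, was the least abundant of the cluster. It had 246.3, 94.7 and 108.3 CPM in EV replicates 1, 2 and 3, from 20, 10 and 10 counts. In Intracellular replicates 1, 2 and 3 it had 69.1, 102.9 and 98.7 CPM. The groups overlapped, and EV replicate 1 alone was above all Intracellular libraries. The order of the 4 arms, miR-143-3p, miR-145-5p, miR-143-5p and miR-145-3p, was the same in all 6 libraries.

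**Figure D1:**
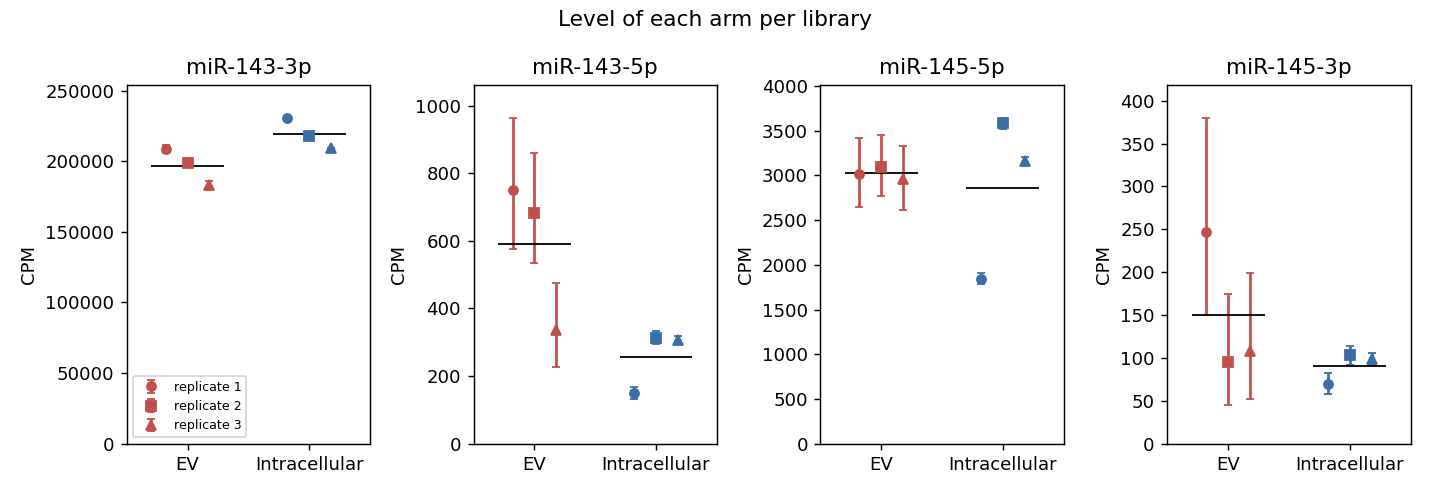
Level in CPM of each arm of the cluster in the 3 EV libraries (red) and the 3 Intracellular libraries (blue), with exact 95% binomial intervals as bars, the group mean as a line and the replicates as symbols. miR-143-5p is higher in all EV libraries, while the low miR-145-5p level of 1842 CPM belongs to Intracellular replicate 1.

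The counts can also be read without any model. At the pooled Intracellular share of each arm, the 3 EV libraries together would hold 59770 counts of miR-143-3p, 80.5 of miR-143-5p, 862.5 of miR-145-5p and 26.7 of miR-145-3p. They held 54885 counts of miR-143-3p, 164 of miR-143-5p, 845 of miR-145-5p and 40 of miR-145-3p. Thus miR-145-5p lay nearest to the Intracellular share and miR-143-5p farthest from it. The pooled share is weighted towards Intracellular replicate 3, the deepest library.

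Whether the levels differed between EV and cells was tested in a fit across all 328 miRNAs with edgeR's quasi-likelihood test and Benjamini-Hochberg adjustment. With TMM scaling 42.7% of all miRNAs tested were called at an adjusted p under 0.05, 25.6% higher in EV and 17.1% lower. Of the 4 arms, 1 was called, miR-145-5p, which fell in EV (log2 fold change -0.53, SE 0.18, edgeR adjusted p = 0.0249). For miR-143-3p the fitted change was -0.88 (SE 0.36, edgeR adjusted p = 0.0541), just outside the threshold. miR-143-5p had 0.59 (SE 0.24, edgeR adjusted p = 0.0592) and miR-145-3p 0.05 (SE 0.31, edgeR adjusted p = 0.915) on the same scale. The called arm was thus the guide whose EV levels lay inside the range of the Intracellular levels in CPM. Its call was lost without EV replicate 1, EV replicate 2, Intracellular replicate 2 or Intracellular replicate 3, with edgeR adjusted p of 0.0996, 0.0728, 0.102 and 0.0841 in that order. Without Intracellular replicate 1 its change was -0.50 (edgeR adjusted p = 0.00356).

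The calls turned on the scaling. The median miRNA tested had a log2 fold change of 0.55 with total-count scaling and of -0.06 with TMM, which are 0.61 apart. With total counts 33.5% of all miRNAs tested were called, 32.6% higher in EV and 0.915% lower. miR-143-5p was the arm called there, and it rose in EV (log2 fold change 1.20, SE 0.38, edgeR adjusted p = 0.0136). miR-145-5p had 0.08 (edgeR adjusted p = 0.865), the opposite sign to that with TMM, but without Intracellular replicate 1 it had -0.15 (edgeR adjusted p = 0.404), the same sign as with TMM. miR-143-3p had -0.15 (edgeR adjusted p = 0.199). Without Intracellular replicate 1, miR-143-5p had 0.93 with total counts (edgeR adjusted p = 0.00763). Its call there was lost without EV replicate 1 (edgeR adjusted p = 0.122) or EV replicate 2 (0.0618).

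Relative to the median miRNA, which leaves out the shift, the arms kept their order under both scalings. The log2 fold change of miR-143-3p minus that median was -0.81 with TMM and -0.70 with total counts. For miR-145-5p it was -0.46 with TMM and -0.47 with total counts. The passengers had 0.65 under both scalings for miR-143-5p, and 0.11 with TMM and 0.16 with total counts for miR-145-3p. With all libraries and under these scalings, both guide arms were thus below the median change and both passenger arms above it. For miR-145-3p this rests on EV replicate 1, without which it was at -0.42 with TMM, where the median was -0.0053, and at 0.17 with total counts, where the median was 0.57. It was also below the median with the filter at a group mean of 10 CPM, at -0.026 where the median was 0.25. With TMM and no filter the guide miR-145-5p was above the median, at -0.66 where the median was -0.79. These distances from the median carry no test.

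**Figure D2:**
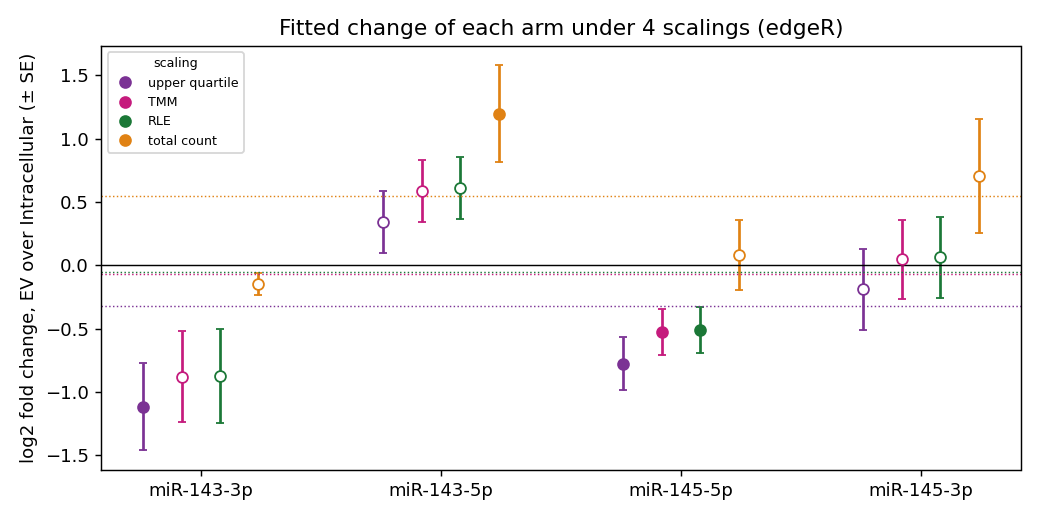
Log2 fold change (EV over Intracellular, ± SE) of each arm from edgeR under 4 scalings, with filled points at an adjusted p under 0.05 and dotted lines at the median of all tested miRNAs under each scaling. miR-145-5p changes from -0.53 with TMM to 0.08 with total counts, and each arm moves with the dotted line of its colour.

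Intracellular replicate 1 weighed on the value for miR-143-3p. With TMM scaling and the same tested miRNAs, its log2 fold change was -0.47 without that library, with a smaller SE of 0.08 (edgeR adjusted p = 2.67e-05), against -0.88 with all libraries. Without Intracellular replicate 2 it was -1.02 (edgeR adjusted p = 0.0344). With total counts it was not called without any 1 library (edgeR adjusted p 0.207 to 0.510). For miR-143-5p, leaving out EV replicate 3, its lowest EV library, gave 0.83 with TMM (edgeR adjusted p = 0.0132). Leaving out Intracellular replicate 1 gave 0.57 with TMM (edgeR adjusted p = 0.0722).

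A ratio between arms of a single hairpin does not depend on the scaling of the library. miR-143-5p made up 0.358%, 0.342% and 0.183% of the counts of both miR-143 arms in EV replicates 1, 2 and 3, and 0.0649%, 0.144% and 0.147% in Intracellular replicates 1, 2 and 3. All EV shares were above all Intracellular shares, with EV replicate 3 the nearest to them. The mean Intracellular share was 0.118%, or 0.145% without Intracellular replicate 1. The exact 95% binomial interval of EV replicate 3 ran from 0.124% to 0.259%. In counts, miR-143-3p outnumbered its passenger 372.0 ± 151.2 times in EV and 971.8 ± 492.7 times in Intracellular libraries (SD, n = 3).

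The arm ratio was tested with edgeR across 75 precursors with counts of both arms. Of these, 24.0% were called, 10.7% with the share of the 5p arm higher in EV and 13.3% with it lower, and the log2 ratios of the groups did not overlap in 62.7%. The ratio of miR-143-5p to miR-143-3p rose in EV by 1.36 on the log2 scale (SE 0.54, edgeR adjusted p = 0.0473), or 2.57 times. The call was close to the threshold. It was lost without EV replicate 1 (edgeR adjusted p = 0.134), EV replicate 2 (0.214), Intracellular replicate 2 (0.0732) or Intracellular replicate 3 (0.125), with the ratio still higher in EV by 1.20, 1.22, 1.55 and 1.57. Without Intracellular replicate 1, which had the lowest passenger share, the change was 1.03 (edgeR adjusted p = 0.00224). The exact permutation test of the log2 ratios gave p = 0.1, the smallest possible.

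In the miR-145 hairpin the minor arm is the 3p arm. miR-145-3p made up 7.55%, 2.97% and 3.53% of the counts of both arms in EV replicates 1, 2 and 3, and 3.61%, 2.79% and 3.02% in Intracellular replicates 1, 2 and 3. The groups overlapped, and EV replicate 1 stood above the rest. The log2 ratio of miR-145-5p to miR-145-3p had a difference of -0.56 (SE 0.39, edgeR adjusted p = 0.328) between EV and Intracellular libraries. Without EV replicate 1 it was -0.06 (edgeR adjusted p = 0.943), and without Intracellular replicate 1 it was -0.66 (edgeR adjusted p = 0.208). The ratio rests on 40 counts of miR-145-3p in the EV libraries. Whether both hairpins differ in their change of arm ratio was not tested.

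**Figure D3:**
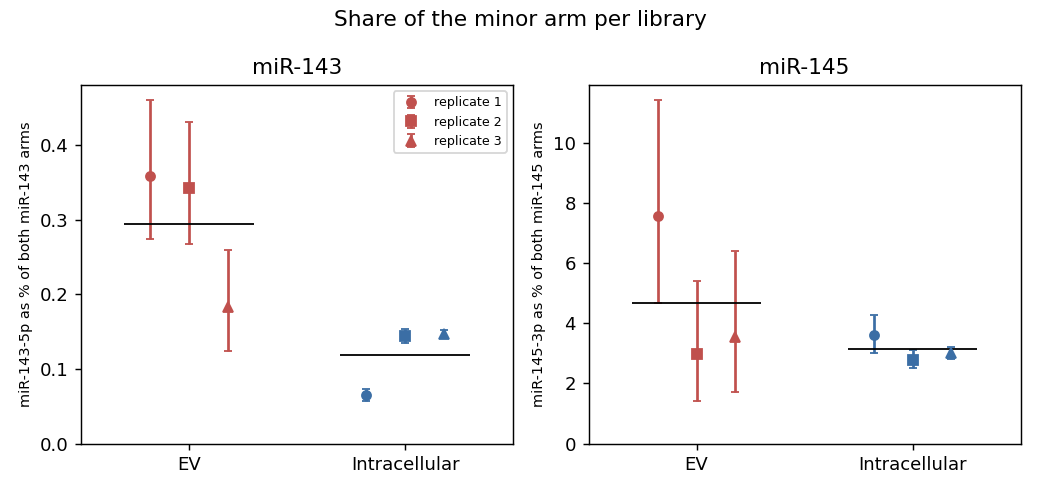
Share of the minor arm in the counts of both arms of a hairpin, in percent, for miR-143 (left) and miR-145 (right) in the 3 EV libraries (red) and the 3 Intracellular libraries (blue), with exact 95% binomial intervals and the group mean as a line. The miR-143-5p share is between 0.183% and 0.358% in EV and at most 0.147% in Intracellular libraries, while the miR-145-3p shares overlap.

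Among the 8 precursors with the most counts, all at 10000 CPM or more over the 6 libraries, 2 were called. The passenger share of miR-143 was higher in EV, at 0.294% ± 0.0970 in EV, against 0.118% ± 0.0465 in Intracellular libraries (SD, n = 3). That of miR-152, of the miR-148 family, was lower, at 0.349% ± 0.135 in EV, against 1.95% ± 0.289 in Intracellular libraries (log2 change of the minor over the major arm -2.55, SE 0.39, edgeR adjusted p = 6.11e-09). The minor arm of miR-199a, with 5581 EV counts, took 22.6% ± 0.883 in EV, against 26.6% ± 3.24 in Intracellular libraries (edgeR adjusted p = 0.656). The passenger of miR-27b, of the miR-23b cluster, took 0.210% ± 0.0808 in EV, from 14 counts, against 0.230% ± 0.0208 in Intracellular libraries (edgeR adjusted p = 0.887). The minor arms of miR-21 and let-7i had 7 counts each in all EV libraries together, that of let-7g 1 and that of miR-99a 0, so these ratios were poorly measured. Over all 75 precursors the minor arm was called higher in EV for 11 and lower for 7, with a median log2 change of -0.04.

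The ratio of miR-143-3p to miR-145-5p compares the guides of the shared transcript. It was 69.2, 64.2 and 62.0 in EV replicates 1, 2 and 3, and 125.1, 60.7 and 66.2 in Intracellular replicates 1, 2 and 3. Apart from Intracellular replicate 1, all libraries lay between 60.7 and 69.2. The means were 65.2 ± 3.70 in EV, against 84.0 ± 35.7 in Intracellular libraries (SD, n = 3). The difference of the mean log2 ratios, EV minus Intracellular, was -0.29 (exact 2-sided permutation p = 0.7), less than the SD of 0.57 within the Intracellular libraries. Without Intracellular replicate 1 it was 0.03 (exact permutation p = 0.8). The high ratio of that library came with the lowest miR-145-5p level and the highest miR-143-3p level of its group. Adapters ligate to some sequences better than to others, so that a ratio of counts between different miRNAs is not a ratio of molecules, although the same bias applies to every library made in the same way.

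Other ratios across the hairpins involve the passenger arms. miR-143-5p over miR-145-5p was 0.249, 0.220 and 0.114 in EV replicates 1, 2 and 3, and 0.0812, 0.0875 and 0.0973 in Intracellular replicates 1, 2 and 3. The groups did not overlap. The difference of the mean log2 ratios was 1.08 (exact permutation p = 0.1, the smallest possible). It was 1.02 without Intracellular replicate 1 (exact permutation p = 0.2, the smallest that 3 against 2 libraries allow). miR-143-5p over miR-145-3p, the ratio of the passengers, was 3.05, 7.20 and 3.10 in EV replicates 1, 2 and 3, and 2.17, 3.04 and 3.12 in Intracellular replicates 1, 2 and 3, with a difference of the mean log2 ratios of 0.49 (exact permutation p = 0.6). EV replicate 2 stood apart there, with 10 counts of miR-145-3p, and without Intracellular replicate 1 the difference was 0.32. miR-143-3p over miR-145-3p was 848.2, 2098 and 1694 in EV replicates 1, 2 and 3, and 3336, 2114 and 2123 in Intracellular replicates 1, 2 and 3 (difference of the mean log2 ratios -0.88, exact permutation p = 0.1, the smallest possible). EV replicate 2 nearly met Intracellular replicates 2 and 3 in this ratio. Without Intracellular replicate 1 the difference was -0.66 (exact permutation p = 0.2, again the smallest that 3 against 2 libraries allow).

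**Figure D4:**
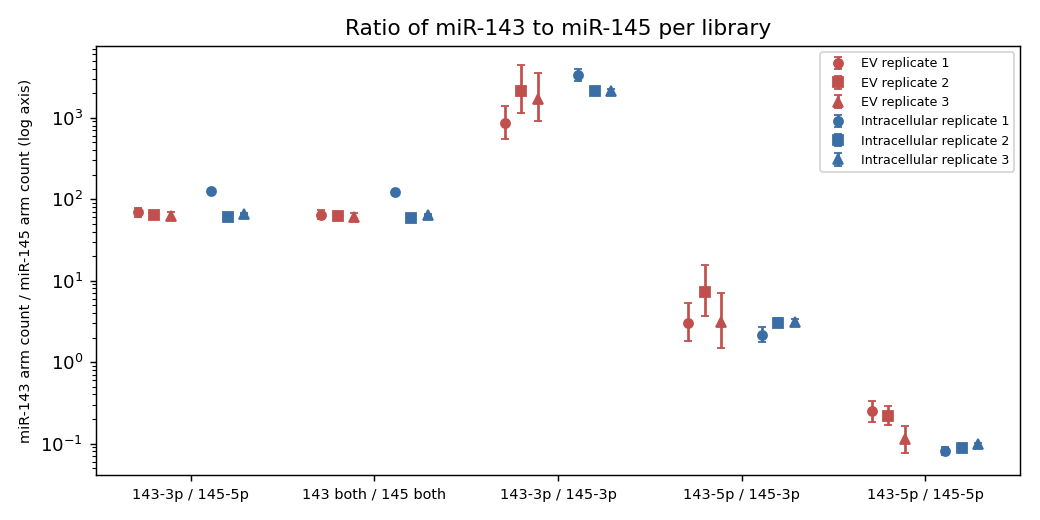
Ratio of a miR-143 arm to a miR-145 arm in each library on a log axis, with intervals from the exact 95% binomial interval of the share, EV libraries in red left of Intracellular libraries in blue. The guide ratio lies between 60.7 and 69.2 in all libraries except Intracellular replicate 1, at 125.1.

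For scale, the same log2 ratio was computed for 28 pairs of guide arms that are transcribed together, of which 26 had both miRNAs tested. Some of their members, such as miR-24-3p and miR-16-5p, are also made from another locus. The pairs, including those named below, were not screened for this, so not every ratio is one within a single transcript. The median size of the difference between EV and Intracellular libraries was 0.45 on the log2 scale, and 7 pairs exceeded 1. The miR-143-3p and miR-145-5p pair was at place 18 in order of size. The widest differences were -3.07 for miR-17-5p over miR-92a-3p and -2.28 for miR-199a-3p over miR-214-3p, and the narrowest 0.03 for miR-192-5p over miR-194-5p and 0.11 for miR-98-5p over let-7f-5p. In 12 of the 26 pairs Intracellular replicate 1 lay more than 0.5 from the mean of the other Intracellular libraries, and the miR-143-3p and miR-145-5p pair was among them, at 0.98.

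**Figure D5:**
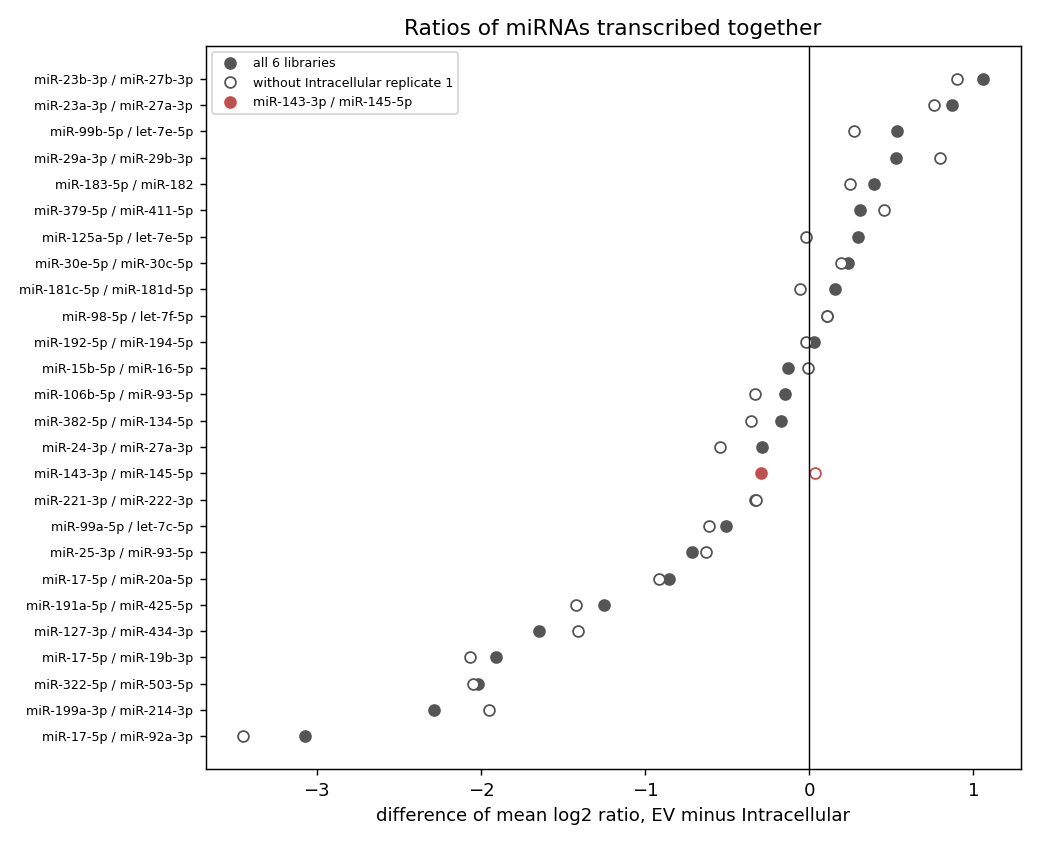
Difference of the mean log2 ratio (EV minus Intracellular) for 26 pairs of miRNAs transcribed together, with all 6 libraries (filled) and without Intracellular replicate 1 (open), and the miR-143-3p and miR-145-5p pair in red. That pair is at -0.29 with all libraries and at 0.03 without Intracellular replicate 1.

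The miRNAs whose profile over the 6 libraries was most like that of each guide were found by the root mean square distance of log2 CPM, each miRNA centred on its own mean, among 60 others with a mean of at least 1000 CPM. Nearest to miR-143-3p were let-7d-5p (0.10), miR-21-5p (0.11) and let-7g-5p (0.11). Nearest to miR-145-5p were miR-351-5p (0.09), miR-25-3p (0.10) and miR-30a-5p (0.14). The distance between both guides was 0.36, which put miR-145-5p at place 28 in the order of likeness to miR-143-3p. This distance rests largely on Intracellular replicate 1, where the ratio of the guides was 125.1, against 60.7 to 69.2 in the other libraries. The distance without that library was not computed. The median distance from miR-143-3p was 0.40. The nearest miRNAs of miR-145-5p share its small spread in EV and wide spread in Intracellular libraries because they were chosen by that profile. miR-351-5p, for example, was at 1404 ± 119 CPM in EV, against 1314 ± 454 CPM in Intracellular libraries (SD, n = 3).

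The cluster was set beside the other mesenchymal, fibroblast and smooth muscle miRNAs. Of 17 listed, 13 were tested. With TMM scaling 4 rose and 6 fell in EV, where 25.6% of all miRNAs tested were called higher and 17.1% lower. With total counts 6 rose and 0 fell, where 32.6% of all were called higher and 0.915% lower. The median log2 fold change of the 13 was 0.20 with TMM and 0.77 with total counts, against -0.06 and 0.55 over all miRNAs tested. miR-29a-3p, which represses collagen mRNAs, rose under both scalings, by 1.70 with TMM (edgeR adjusted p = 3.88e-07), with 4930 ± 135 CPM in EV, against 996.1 ± 313.8 CPM in Intracellular libraries (SD, n = 3). So did miR-214-3p, of the Dnm3os transcript, by 1.53 (edgeR adjusted p = 8.52e-06), and miR-152-3p, by 1.51 (edgeR adjusted p = 0.000172). miR-199a-5p, transcribed together with miR-214, fell with TMM by 1.04 on the log2 scale (edgeR adjusted p = 0.00300), as did miR-125b-5p by 0.99 (edgeR adjusted p = 0.00251), but with total counts they had -0.39 and -0.37 (edgeR adjusted p = 0.0613 and 0.141). miR-21-5p, abundant in activated fibroblasts, fell by 0.97 with TMM (edgeR adjusted p = 0.0319), and had -0.24 with total counts (edgeR adjusted p = 0.0505).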

How the data were processed

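Per the labels' protocols, libraries of RNA from EV and cells were made by adapter ligation, reverse transcription, PCR and size selection on a gel. Per the submitters' processing notes, cutadapt and build Rnor_6.0 were used. Aligner, miRNA database and counting program: not given in the sources used here. The deposited table of counts holds whole reads per mature miRNA and library. The deposited TPM values are these counts brought to 1000000 in each library without a length term (largest difference 4.8e-05). Group and replicate number in the column names gave each column's sample.

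Counts were tested with edgeR 4.0.16 (quasi-likelihood, robust, TMM, filterByExpr with minimum count 10 and minimum total 15, library sizes summed over the tested rows), EV minus Intracellular, 2-sided, called at a Benjamini-Hochberg adjusted p under 0.05. Standard errors came from the F statistic. Arm ratios were tested with edgeR on paired 5p and 3p columns with an intercept per library, for precursors with at least 20 counts of both arms in every library and 5 of the minor arm in all. Their printed changes are those of this fit unless limma is named. Log2 ratios per library, used for permutation tests, overlap, limma and pairs, took a prior count of 1. Ratios and shares were compared by exact permutation (scipy 1.17.1), and shares carry exact binomial (Clopper-Pearson) 95% intervals. The procedures were tested on simulated data.

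Alternatives were scaling by RLE, by total count, by the upper quartile or by TMM leaving out the 10 most abundant miRNAs, looser filters, DESeq2 1.42.0, limma 3.58.1 (voom, log2 TPM and log2 arm ratios), known miRNAs alone, a replicate block and each library left out. Leaving out a library with total-count scaling was added after seeing the data.

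Members and lists were chosen with earlier results of these data known. Named miRNAs are the members, their neighbours in level, the 3 closest profiles for each guide, the most abundant of up to 12 mesenchymal miRNAs, the pairs with the widest and narrowest differences, and the 8 precursors with the most counts. Markers of other cell types are given as summed lists.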

Additional observations from a re-analysis of the deposited data

How the results depend on the processing

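With TMM, 84 miRNAs were higher and 56 lower in EV. The higher count was 197 with no filter and 155 with a group mean of 10 CPM. The lower count was 3 with total counts, 92 with the upper quartile, 4 and 2 with limma on log2(TPM + 1) and log2(TPM + 0.1), and 37 with known miRNAs alone. Leaving out 1 library gave 62 to 91 higher and 18 to 58 lower with the tested miRNAs kept, 50 to 69 and 26 to 55 with the filter applied again, and 83 to 118 and 1 to 21 with total counts. miR-143-3p passed the threshold with the upper quartile (-1.11), no filter (-1.01), a group mean of 10 CPM (-0.95), DESeq2 (-0.87) and limma-voom (-0.82). Without 1 library it ranged from -1.02 to -0.47, from -0.95 to -0.44 with the filter applied again and from -0.19 to -0.10 with total counts. miR-143-5p passed it with total counts (1.198), limma on log2(TPM + 1) (1.19) and known miRNAs alone (0.73). Its ranges were 0.44 to 0.83, 0.39 to 0.77 and, with total counts, 0.93 to 1.48. It passed without EV replicate 3 and, with the filter applied again, also without Intracellular replicate 2 (0.75, edgeR adjusted p = 0.0317) or Intracellular replicate 3 (0.76, edgeR adjusted p = 0.0274). miR-145-5p changed sign with total counts (0.082) and limma on log2(TPM + 1) and log2(TPM + 0.1) (0.13 in both) and lost its call with known miRNAs alone (-0.40). Its ranges were -0.56 to -0.46, -0.63 to -0.34 and, with total counts, -0.15 to 0.28. miR-145-3p, not called, was below 0 with the upper quartile (-0.19), no filter (-0.079) and a group mean of 10 CPM (-0.026), with ranges of -0.42 to 0.31, -0.48 to 0.26 and, with total counts, 0.17 to 0.96, below 0 without EV replicate 1 with TMM. The cause of these changes was not tested, beyond the shift of the median between scalings.

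For the arm ratio, 8 of 75 precursors had a higher and 10 a lower 5p share in EV, against 14 and 20 with limma on log2 ratios. With a minimum of 50 counts these were 4 and 10 of 53 precursors. Without 1 library they were 6 to 7 and 4 to 14, of 70 to 76 precursors. The miR-143 ratio lost its call with the minimum of 50 counts (1.36, edgeR adjusted p = 0.0705, in a range of 0.00224 to 0.214 over its alternatives) and ranged from 1.03 to 1.65 without 1 library, and that of miR-145 from -0.84 to -0.06. The guide ratio ranged from -0.49 to 0.033, changing sign without Intracellular replicate 1, and the share of the cluster from -2.76 to -1.46 percentage points. That share differed by -11.6 percentage points without the 10 most abundant other miRNAs in the denominator and by -1.91 with known miRNAs alone (exact permutation p = 0.1 and 0.2). Prior counts of 0.25 and 5, deposited TPM and both arms summed kept the sign of the ratios they were applied to.

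Same-numbered libraries did not deviate together (r of 0.0160 to 0.0243 over the tested miRNAs), and the replicate numbers are not treated as pairs. The low r cannot exclude pairing, since counting error at the low EV depth would also lower it. With the replicate block miR-143-5p passed the threshold (0.56, edgeR adjusted p = 0.0407). The miR-143 arm ratio did not (1.37, limma adjusted p = 0.0873), while limma without the block gave an adjusted p of 0.0358. In these limma fits 19 precursors had a lower 5p share with the block and 20 without it. Low EV depth limits the passenger arms most, with 164 counts of miR-143-5p and 40 of miR-145-3p in all.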
